A study of Mus musculus with 20 samples.

Results

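Transcripts of 9 complement genes were followed in the quadriceps of old mice: C1qa, C1qb, C1qc, C1ra, C1s1, C2, C3, C4b and Serping1. The genes were chosen by symbol, each symbol was matched to 1 Ensembl identifier, and all 9 were found among the 55416 genes listed. RNA was sequenced from wild-type male C57BL/6J mice aged 26 to 28 months, whose quadriceps had received a single 50 µL injection of saline (control, n = 10) or of a secretome produced by stem cells (n = 10). Muscle was taken 3 h after the injection, so both groups share the needle injury and the injected volume, and all mice had been fasted. The question was whether complement transcripts differed between secretome and saline-injected muscle. Every value describes whole muscle, in which fewer cells of a type and less RNA per cell cannot be told apart.

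Complement is a cascade of plasma and tissue proteins that tags particles and damaged cells for removal. In its classical arm, C1q binds a surface and activates the proteases C1r and C1s, which cleave C4 and C2 to form the convertase that cleaves C3. C1q is made largely by tissue macrophages, whereas C1r, C1s, C3, C4 and the C1 inhibitor Serping1 are made by fibroblast-like stromal cells as well as by liver. In muscle, those stromal cells are the fibro-adipogenic progenitors marked by Pdgfra.

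The C1q chain genes lie next to each other on chromosome 4, and C3 lies on chromosome 17. RefSeq promoter windows were matched for 5 of the 9 genes (C1qb, C1qc, C1ra, C1s1 and C3). The 250 bases before the transcription start are shown for C1qb and C1qc, which each varied with C1qa between mice, and for C3, the most abundant of the genes per length. They were read 5′ to 3′ on the minus strand of GRCm38.p6, at chr4:136886201-136886450, chr4:136892915-136893164 and chr17:57228137-57228386, and capitals mark matches to a searched motif.
C1qb: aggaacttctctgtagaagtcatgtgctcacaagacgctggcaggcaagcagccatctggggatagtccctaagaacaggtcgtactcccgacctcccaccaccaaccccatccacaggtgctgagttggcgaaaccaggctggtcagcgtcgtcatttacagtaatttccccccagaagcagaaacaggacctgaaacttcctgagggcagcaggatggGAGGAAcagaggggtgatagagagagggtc
C1qc: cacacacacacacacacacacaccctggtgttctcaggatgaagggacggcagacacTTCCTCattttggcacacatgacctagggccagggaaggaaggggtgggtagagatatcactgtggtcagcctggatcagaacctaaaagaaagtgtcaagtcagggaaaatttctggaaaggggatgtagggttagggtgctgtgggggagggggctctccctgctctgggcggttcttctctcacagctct
C3: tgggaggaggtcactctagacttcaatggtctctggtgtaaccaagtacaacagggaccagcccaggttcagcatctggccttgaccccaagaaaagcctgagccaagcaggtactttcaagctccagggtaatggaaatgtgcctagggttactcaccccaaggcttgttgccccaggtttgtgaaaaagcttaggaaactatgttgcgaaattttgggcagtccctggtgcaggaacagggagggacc
The capitals are the core letters GAGGAA bound by PU.1, a transcription factor of macrophages and other myeloid cells, searched on both strands. The match began 30 bases before the start in C1qb and lay on the other strand, 193 bases before the start, in C1qc. The same letters occur in 23.3% of the 32851 mouse promoters of this length, so the matches describe the sequence and do not show binding. No match to the interferon-gamma activated site TTCNNNGAA (7.02% of promoters), the interferon-stimulated core GAAANNGAA (7.13%), the C/EBP core TTGCNNCAA (1.74%) or the TATA box TATAAA (12.4%) was found in these windows or in those of C1ra and C1s1.

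Libraries held 13286983 to 22987237 counts. Libraries 1 to 5 were all controls and libraries 16 to 20 all secretome, and the share of counts taken by Ttn, the giant sarcomere protein gene, differed between ranges of library numbers (7.02% to 11.03% in libraries 1 to 5, 16.4% to 21.1% in libraries 6 to 15, 14.2% to 14.7% in libraries 16 to 20). No source names a batch. Libraries 6 to 15 hold control replicates 6 to 10 and secretome replicates 1 to 5, and every comparison is therefore also given within them. Outside them, range and treatment cannot be told apart. The label of the tissue was checked against 5 myofibre genes, whose summed level was 55802 to 117262 CPM (counts scaled to a fixed library total) in every library. Of 4 liver genes, Apoa1 and Ttr reached at most 1 count in a library, Serpina1a 3 and Alb 11. The labels give quadriceps as the tissue, while their extraction text speaks of myotubes, and myofibre genes alone do not tell muscle from myotubes. Markers of other tissue cells, given with the comparisons, were also present.

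Per kilobase of exon, C3 was the highest of the 9 genes in control muscle at 41.5 ± 14.4 CPM per kb (SD, n = 10). Serping1 followed at 24.9 ± 11.4 CPM per kb. C1qb (10.6 ± 4.75), C4b (10.3 ± 3.49), C1s1 (10.3 ± 3.77) and C1qa (8.27 ± 3.71 CPM per kb) differed from each other by less than their SD. C1qc had 5.71 ± 2.95 and C1ra 3.53 ± 1.40 CPM per kb, and C2, the partner of C4 in the convertase, was lowest at 0.642 ± 0.239 CPM per kb. After secretome, C3 (24.1 ± 5.99) and Serping1 (17.1 ± 4.20 CPM per kb) again stood above the rest, and C2 was again lowest at 0.384 ± 0.183 CPM per kb.

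All 9 genes had a lower fitted level after secretome than after saline, and none passed a 5% false discovery rate across the 14471 genes tested by edgeR's quasi-likelihood test, in which 0.00691% of genes passed and were lower (1 gene). At an unadjusted p under 0.05, 9 of the 9 genes were lower, against 9.21% of all genes tested. With DESeq2, the tool the study used, C3 (adjusted p = 0.0112) and C4b (adjusted p = 0.00949) passed, where 0.843% of genes passed and were lower. Both also passed in DESeq2 after each of the 20 libraries was left out in turn. The study also set a fold change cutoff, which was not applied here. The median log2 fold change was -0.74 over the 9 genes and -0.03 over all genes tested.

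C3, the central component on which all arms of the cascade converge, was measured at 96.4, 198 and 314 CPM in control muscle (lowest, median and highest) and at 92.2, 120 and 175 CPM after secretome. All 10 secretome libraries lay below the control median, and 7 controls lay above the highest secretome library, but control replicate 2 was as low as the lowest secretome mice. The fitted C3 level was 1.72 times lower after secretome (log2 fold change -0.79 ± 0.19, SE; edgeR adjusted p = 0.109).

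C4b, the mouse C4 that joins C2 in the classical C3 convertase, spanned 28.5, 57.8 and 87.0 CPM in controls and 18.5, 33.1 and 49.9 CPM after secretome. Again all 10 secretome libraries lay below the control median, and 6 controls lay above every secretome library, while control replicates 2, 5, 6 and 10 lay at 28.5 to 46.1 CPM. The difference was 1.80-fold (log2 fold change -0.84 ± 0.19; edgeR adjusted p = 0.109). C4b shares sequence with C4a, with 7.48% of its windows of 150 bases found in C4a as well, and C4a itself had 6 to 29 counts per library.

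The 3 chains of C1q, the recognition molecule of the classical arm, had similar differences. C1qa was measured at 3.44, 8.49 and 15.2 CPM in controls and at 2.698, 3.76 and 9.26 CPM after secretome. C1qb spanned 6.48, 9.95 and 20.2 CPM in controls and 3.75, 4.65 and 12.9 CPM after secretome. C1qc spanned 2.45, 10.99 and 20.5 CPM in controls and 2.53, 4.13 and 10.3 CPM after secretome. The groups overlapped for all 3 genes, with 9 (C1qa), 8 (C1qb) and 10 (C1qc) of the 10 secretome libraries below the control median. The log2 fold change was -0.75 ± 0.28 for C1qa, -0.74 ± 0.27 for C1qb and -0.97 ± 0.33 for C1qc (edgeR adjusted p = 0.221, 0.218 and 0.195). High values among the secretome mice came from libraries 16 to 20, of which at least 4 of 5 exceeded every secretome library of 6 to 15 for each chain.

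C1ra and C1s1 encode the proteases held by C1q. C1ra spanned 6.59, 8.26 and 16.4 CPM in controls and 4.97, 7.16 and 11.3 CPM after secretome (log2 fold change -0.45 ± 0.19, edgeR adjusted p = 0.271). C1s1 spanned 17.6, 28.8 and 50.9 CPM in controls and 17.3, 24.4 and 33.4 CPM after secretome (log2 fold change -0.39 ± 0.18, edgeR adjusted p = 0.303). For both genes, 4 of the 5 controls of libraries 1 to 5 were above every secretome library. C1ra shares 26.3% of its windows with C1rb, which had at most 5 counts in a library, and C1s1 shares 2.46% with C1s2, which had at most 7.

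C2 spanned 0.926, 2.71 and 3.62 CPM in controls and 0.292, 1.37 and 2.63 CPM after secretome (log2 fold change -0.74 ± 0.29, edgeR adjusted p = 0.237). All 10 secretome libraries were below the control median, but C2 rested on only 6 to 63 counts per library. Serping1, the inhibitor of C1r and C1s, spanned 33.0, 45.4 and 97.7 CPM in controls and 30.1, 38.4 and 58.5 CPM after secretome (log2 fold change -0.55 ± 0.22, edgeR adjusted p = 0.242). Controls 1, 3, 4 and 5 stood at 70.8 to 97.7 CPM, above every secretome library, whereas the other 6 controls lay within the secretome range.

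**Figure D1:**
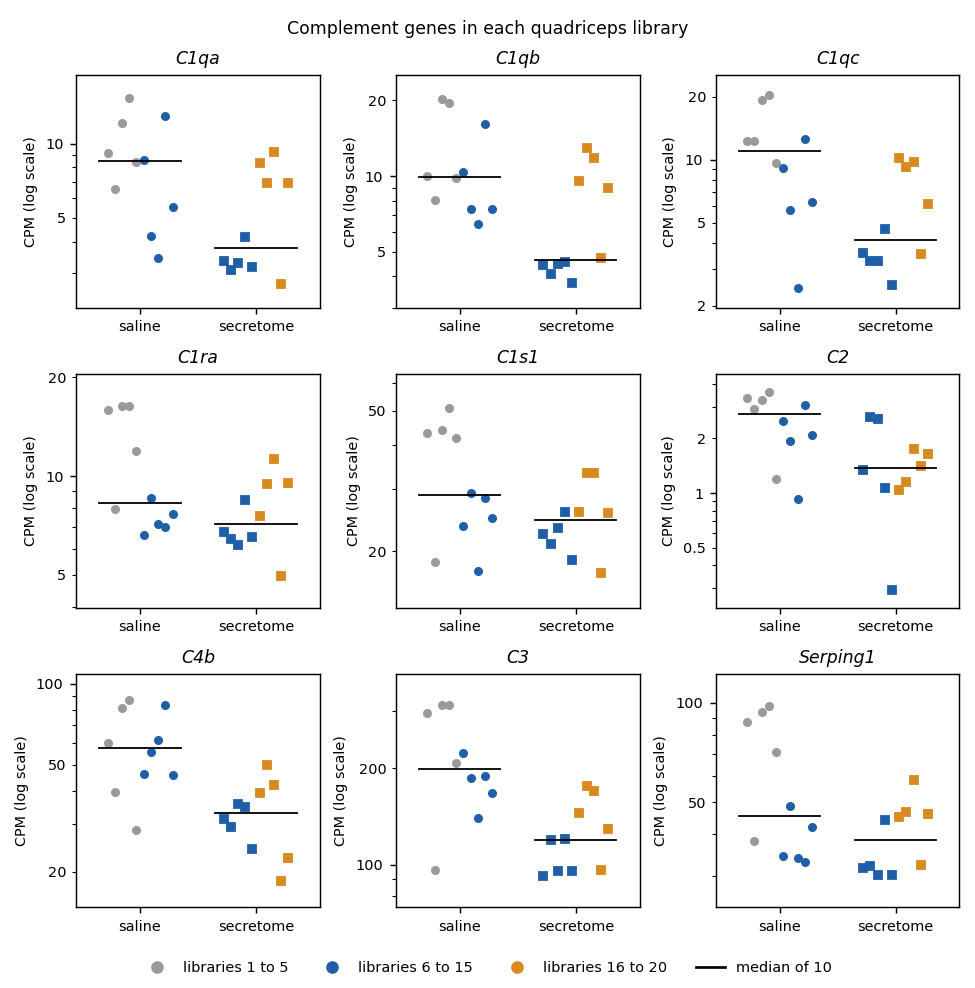
CPM (log axis) of each of the 9 complement genes in the 10 saline (circles) and 10 secretome (squares) libraries, coloured by range of library numbers, with the median of each group as a line. C3 and C4b were lower after secretome among the blue libraries 6 to 15 without overlap, while for C1ra, C1s1 and Serping1 the high values were mainly the grey controls of libraries 1 to 5.

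Within libraries 6 to 15, the C1q chains, C3 and C4b had differences at least close to those over all mice, and those of C1ra, C1s1 and Serping1 were smaller. In the fit of these 10 libraries alone, C1qa, C1qb, C1qc, C3 and C4b, 5 of the 9 genes, were lower at an unadjusted p under 0.05, against 4.92% of the 14469 genes tested. None passed the false discovery rate in edgeR, where 0.0% of all genes passed and the smallest adjusted p was 0.174, that of C3. In DESeq2, C1qb (adjusted p = 0.00322), C3 (adjusted p = 0.000193) and C4b (adjusted p = 0.00102) passed, where 0.168% of genes passed and were lower, and all 3 passed after each of the 10 libraries was left out. For the same 3 genes every secretome library lay below every control, a separation shown by 1.09% of the genes tested.

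C3 in these controls was 223, 186, 140, 189 and 167 CPM, and in the secretome mice 92.2, 119, 95.6, 120 and 95.6 CPM. The lowest control was thus above the highest secretome mouse, and the log2 fold change was -0.78 ± 0.13 (edgeR adjusted p = 0.174). C4b was 46.1, 55.6, 61.6, 83.7 and 45.7 CPM in controls and 31.3, 29.4, 35.9, 34.9 and 24.3 CPM in secretome mice (log2 fold change -0.90 ± 0.16, edgeR adjusted p = 0.178). Control replicate 9 was the highest for C4b, and the other 4 controls were also above all secretome mice.

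C1qb was 10.4, 7.39, 6.48, 16.1 and 7.37 CPM in these controls and 4.43, 4.08, 4.48, 4.55 and 3.75 CPM in the secretome mice (log2 fold change -1.15 ± 0.23, edgeR adjusted p = 0.290). C1qa was 8.59, 4.23, 3.44, 12.9 and 5.51 CPM in controls and 3.34, 3.06, 3.29, 4.18 and 3.16 CPM after secretome (log2 fold change -1.01 ± 0.31, edgeR adjusted p = 0.415). C1qc was 9.15, 5.76, 2.45, 12.5 and 6.27 CPM in controls and 3.58, 3.28, 3.29, 4.68 and 2.53 CPM after secretome (log2 fold change -1.05 ± 0.34, edgeR adjusted p = 0.445). Control replicate 8 was the lowest control for all 3 chains, and for C1qc it was below every secretome mouse. The secretome mice varied less, with a coefficient of variation of 7.95% for C1qb against 41.6% in controls.

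The proteases and the C1 inhibitor differed little in this range. The log2 fold change was -0.09 ± 0.14 for C1ra, -0.14 ± 0.13 for C1s1 and -0.18 ± 0.14 for Serping1, with unadjusted p from 0.220 to 0.509. Serping1, for example, was 34.3, 48.6, 33.9, 33.0 and 42.1 CPM in controls and 31.6, 32.0, 30.2, 44.4 and 30.1 CPM after secretome, with the groups overlapping. C2 had a log2 fold change of -0.41 ± 0.45. In the remaining libraries, controls 1 to 5 against secretome replicates 6 to 10, the log2 fold change was -0.68 ± 0.20 for C1ra, -0.55 ± 0.21 for C1s1, -0.76 ± 0.20 for Serping1, -0.78 ± 0.23 for C3 and -0.78 ± 0.29 for C4b. There it was -0.59 ± 0.32 for C1qa, -0.50 ± 0.29 for C1qb, -0.92 ± 0.33 for C1qc and -1.03 ± 0.41 for C2.

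The difference between the 2 sets of libraries was itself tested in edgeR. It was -0.67 on the log2 scale for C1qb (p = 0.116, adjusted p = 0.575), 0.62 for C2 (p = 0.301, adjusted p = 0.740), 0.57 for both C1ra (p = 0.0569, adjusted p = 0.469) and Serping1 (p = 0.0592, adjusted p = 0.476), and -0.01 for C3 (adjusted p = 0.994). None of the 9 genes passed, so the smaller differences of C1ra, C1s1 and Serping1 and the larger one of C1qb within libraries 6 to 15 are values side by side and not an established contrast.

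**Figure D2:**
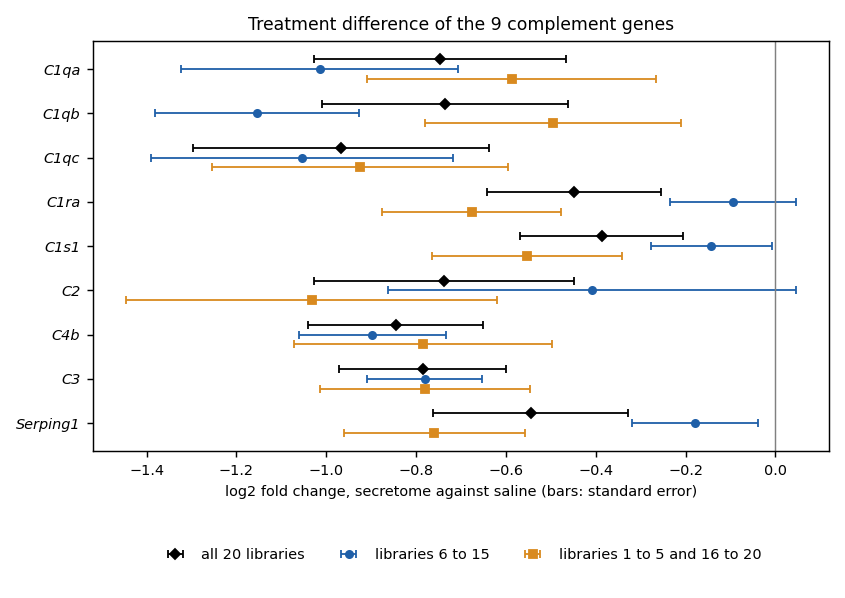
Log2 fold change of secretome against saline with its standard error for the 9 genes, in all 20 libraries (black), libraries 6 to 15 (blue) and the other 10 libraries (orange). C3 lies near -0.78 in all 3 sets, whereas C1ra runs from -0.09 in libraries 6 to 15 to -0.68 in the others; the first set contains the other 2.

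Macrophage, stromal and lymphocyte genes were read beside the complement genes. Of 12 macrophage markers, 10 were tested, 10 had a lower level after secretome, against 55.9% of all genes tested, and 3 were lower at an unadjusted p under 0.05, against 9.21%: Csf1r, the receptor for the macrophage growth factor (log2 fold change -0.76 ± 0.22), Adgre1, which encodes F4/80 (-0.82 ± 0.24), and the protease gene Ctss (-1.01 ± 0.33). Their median log2 fold change was -0.27, and the summed level of the list was 52.6, 83.3 and 154 CPM in controls and 39.7, 50.2 and 122 CPM after secretome. In libraries 6 to 15, 4 of the 10 were lower at that p, against 4.92% of all genes, and the median was -0.54. In edgeR 0 of them passed the false discovery rate in either set. In DESeq2 Csf1r passed over all 20 libraries (adjusted p = 0.0455), where 0.843% of genes passed and were lower, and not within libraries 6 to 15 (adjusted p = 0.0629). Ctss passed in DESeq2 within libraries 6 to 15 (adjusted p = 0.00408), where 0.168% of genes passed and were lower, and not over all 20 (adjusted p = 0.0636). The differences were uneven, with log2 fold changes of -0.11 ± 0.31 for Mrc1, -0.07 ± 0.13 for Mertk and -0.02 ± 0.46 for Fcgr1, and the list median was smaller than the -0.74 to -0.97 of the C1q chains. Aif1 and Cx3cr1, the other 2 markers, had too few counts for the edgeR test. In DESeq2 over all 20 libraries their log2 fold changes were -1.56 ± 0.46 (adjusted p = 0.0520) and -0.89 ± 0.31 (adjusted p = 0.101). Neither passed in DESeq2 in either set of libraries.

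Of 10 stromal markers, all 10 had a lower level after secretome, against 55.9% of all genes tested. In edgeR 0 of them reached an unadjusted p under 0.05, where 9.21% of all genes were lower at that p. None of the markers passed the false discovery rate. Their median log2 fold change was -0.39. The summed level of the list was 407, 1281 and 2253 CPM in controls and 593, 909 and 1394 CPM after secretome, so the range was wider in controls. In libraries 6 to 15 the median was -0.17, Pdgfra had a log2 fold change of -0.12 ± 0.12, and the collagen-binding proteoglycan gene Dcn had 0.33 ± 0.16. The markers did not share a direction there. Lum, a related proteoglycan gene, was higher at an unadjusted p of 0.00905 (log2 fold change 0.60 ± 0.20), whereas the collagen genes Col1a1 and Col3a1 had -0.54 ± 0.55 and -0.48 ± 0.46.

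The 4 B and T cell markers had too few counts for the edgeR test, with at most 44 in a library. Their summed level was 0.290, 1.09 and 5.48 CPM in controls and 0.154, 0.334 and 0.761 CPM after secretome. Within libraries 6 to 15 it was 0.290, 1.28 and 5.48 CPM in controls and 0.154, 0.561 and 0.681 CPM after secretome. DESeq2, which filters differently, called Cd3e, a chain of the T cell receptor complex (log2 fold change -3.64 ± 0.88, adjusted p = 0.0114), and Cd79a, a chain of the B cell receptor (-2.70 ± 0.74, adjusted p = 0.0302), over all 20 libraries. There 0.843% of all genes passed and were lower. Cd79b did not pass (-1.60 ± 0.53, DESeq2 adjusted p = 0.0921), and Cd3g was given no adjusted p. Within libraries 6 to 15 none of the 4 passed in DESeq2, and only Cd79b was given an adjusted p. The median summed level of these lymphocyte markers was thus lower after secretome, and their part in the complement differences was not tested.

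Ratios of counts within a library compare a complement gene with a marker of the cells that make it, free of scaling between libraries. Pdgfra is 1 of 10 stromal markers that differed unevenly, so ratios to it hold for Pdgfra and not for stromal cells as a whole. The macrophage markers also differed unevenly. Csf1r and Adgre1 were among the 3 that were lower at an unadjusted p under 0.05 in edgeR, and others, such as Mrc1, differed less. Ratios to Csf1r or Adgre1 therefore hold for these genes and not for macrophages as a whole. In all, 10 gene pairs were compared, and p-values were adjusted over the pairs. In libraries 6 to 15 the log2 ratio of C3 to Pdgfra was 2.33 ± 0.24 in controls and 1.67 ± 0.16 after secretome (SD, n = 5 each), a difference of -0.67 (two-sided exact permutation test, p = 0.00794, adjusted p = 0.0397). The log2 ratio of C4b to Pdgfra was 0.69 ± 0.34 and -0.08 ± 0.17, a difference of -0.76 (two-sided exact permutation test, p = 0.00794, adjusted p = 0.0397). In both cases all 5 secretome mice lay below all 5 controls, and this p is the smallest that 5 against 5 can give.

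Serping1 relative to Pdgfra did not separate in these libraries, at 0.10 ± 0.30 in controls and 0.03 ± 0.24 after secretome (difference -0.07, two-sided exact permutation test, p = 0.683). C1qa relative to Csf1r was -1.28 ± 0.26 in controls and -1.36 ± 0.32 after secretome (difference -0.08, two-sided exact permutation test, p = 0.698), and C1qa relative to Adgre1 differed by 0.03. Over all 20 libraries the ratio of C1qa to Csf1r differed by 0.02 (permutation test, p = 0.879) and that of C1qa to C3 by less than 0.01. The ratio of C3 to Pdgfra differed by -0.43 over all 20 (permutation test, p = 0.0286, adjusted p = 0.286) and that of C4b to Pdgfra by -0.51 (p = 0.0707, adjusted p = 0.354), with 10 of 10 secretome mice below the control median in both. Control replicate 2 decided the first, whose difference was -0.57 (adjusted p = 0.00303) without that mouse.

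**Figure D3:**
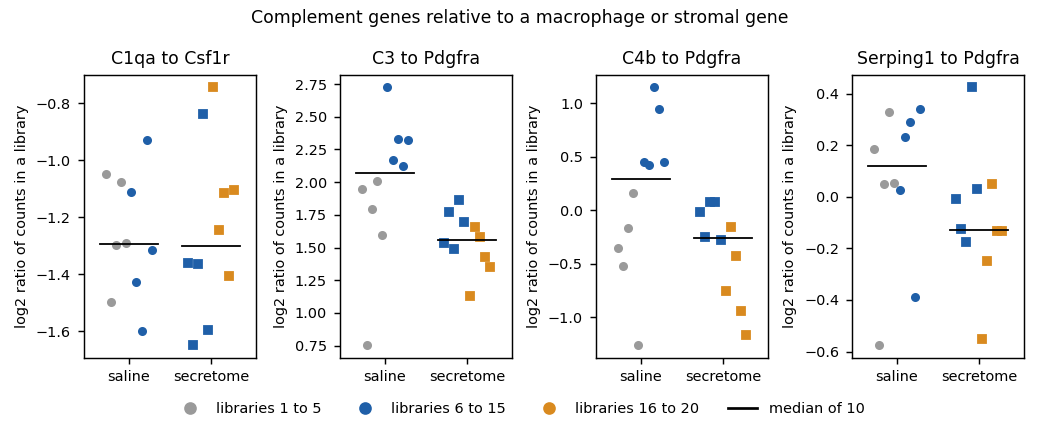
Log2 ratio of the counts of 2 genes in each library, for 10 saline and 10 secretome mice, coloured by range of library numbers, with group medians as lines. Among libraries 6 to 15 the secretome mice lie below the controls for C3 and C4b relative to Pdgfra (mean differences -0.67 and -0.76), while C1qa relative to Csf1r overlaps.

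Across the 10 mice of a treatment, C1qb and C1qc each varied with C1qa, while C1qb with C1qc was not computed. Of 27 relations between gene pairs computed, 15 had an adjusted p of Pearson's r under 0.05. For the 9 pairs these were 5 in controls, 7 after secretome and 3 as deviations within libraries 6 to 15. The mice of a treatment come from different library ranges, which the permutations did not keep apart. Differences between ranges can therefore enter the r of a treatment. C1qa and C1qb correlated with Pearson's r = 0.93 in controls (Spearman's rho = 0.94; permutation p = 0.00014 and 0.00016, adjusted 0.00081 and 0.00144) and r = 0.94 after secretome (rho = 0.76; permutation p = 0.00200 and 0.0149, adjusted 0.00450 and 0.0310). Without the 2 mice farthest from the median C1qa level, r was 0.95 and 0.91. As deviations from the treatment means within libraries 6 to 15, r was 0.95 (rho = 0.96).

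C1qa also followed Csf1r, with r = 0.97 in controls (rho = 0.95; permutation p = 2.0e-05 and 0.0001, adjusted 0.00027 and 0.00135) and r = 0.91 after secretome (rho = 0.73; permutation p = 0.00160 and 0.0199, adjusted 0.00398 and 0.0344). Without the 2 farthest mice r was 0.94 and 0.86, and within libraries 6 to 15 it was 0.87, falling to 0.55 without the 2 farthest. Serping1 and Pdgfra correlated in controls (r = 0.88, rho = 0.78; permutation p = 0.00221 and 0.0104, adjusted 0.00459 and 0.0256) and after secretome (r = 0.81, rho = 0.83; permutation p = 0.00898 and 0.00494, adjusted 0.0162 and 0.0136), and r was 0.80 and 0.75 without the 2 farthest mice. Within libraries 6 to 15 the relation did not hold (r = 0.24, rho = 0.19), and an adjusted p under 0.05 was not reached there by C1ra with C1s1 either (r = 0.49, against 0.89 and 0.91 in the treatments).

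C3 and C4b, whose differences between treatments were alike, were not closely related between mice. Their r was 0.48 in controls (rho = 0.48; permutation p = 0.164 and 0.166, adjusted 0.193 and 0.215), 0.66 after secretome (rho = 0.59; permutation p = 0.0380 and 0.0790, adjusted 0.0617 and 0.119) and -0.05 within libraries 6 to 15 (rho = -0.01). Without the 2 mice farthest from the median C3 level, r was 0.24 and 0.33 in the treatments. C3 and C1qa had r = 0.65 in controls (rho = 0.77; permutation p = 0.0388 and 0.0126, adjusted 0.0617 and 0.0283), 0.88 after secretome (rho = 0.75; permutation p = 0.00137 and 0.0176, adjusted 0.00398 and 0.0339) and 0.58 within libraries 6 to 15 (rho = 0.52), and 0.68 and 0.84 in the treatments without the 2 mice farthest in C1qa. C3 and Pdgfra had r = 0.57 in controls (rho = 0.73; permutation p = 0.0827 and 0.0204, adjusted 0.118 and 0.0344), 0.86 after secretome (rho = 0.85; permutation p = 0.00254 and 0.00277, adjusted 0.00490 and 0.0107) and 0.54 within libraries 6 to 15 (rho = 0.48), and 0.85 and 0.82 without the 2 farthest mice. Whether these r differ from that of C3 with C4b was not tested.

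Among the other 13172 named genes that averaged 1 CPM or more, those most like C1qa in their deviations from the treatment means over 20 mice were Csf1r (r = 0.94), C1qc (0.93), C1qb (0.93), the coagulation factor gene F13a1 (0.91) and the lectin gene Cd209b (0.91). In libraries 6 to 15 these r were 0.87, 0.91, 0.95, 0.79 and 0.86. Those most like C3 were the actin-binding peptide gene Tmsb4x (r = 0.91), Stk17b (0.87), C1s1 (0.87), Ms4a6b (0.87) and Rgl1 (0.85), and within libraries 6 to 15 they were 0.75, 0.58, 0.54, 0.26 and 0.78. These are descriptions over mice that share library ranges, without a test.

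The 9 genes belong to a wider list of 55 complement genes, of which 33 were tested. Of these, 28 had a lower level after secretome, 15 were lower at an unadjusted p under 0.05 (9.21% of all genes were, and 55.9% had a lower level), 0 were higher at that p and 0 passed the false discovery rate in edgeR. In DESeq2, Vtn (adjusted p = 0.0272) and Itgax (adjusted p = 0.0361) passed beside C3 and C4b, where 0.843% of all genes passed and were lower. The median log2 fold change was -0.47. Without the 9 genes, 6 of 24 were lower at an unadjusted p under 0.05 and the median was -0.21, nearer to that of all genes. The counts within libraries 6 to 15 were 7 of 23, against 4.92% of all genes, with a median of -0.29.

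In the alternative arm, which amplifies C3 cleavage, all 4 tested genes were lower at an unadjusted p under 0.05, against 9.21% of all genes. These 4 were Cfd, Cfp, Cfb and C3 itself, already described above. Cfd, the protease factor D made by adipocytes, spanned 33.5, 42.5 and 152 CPM in controls and 16.5, 34.5 and 50.7 CPM after secretome (log2 fold change -0.87 ± 0.28, edgeR adjusted p = 0.180). All 4 adipocyte markers also had a lower level over all 20 libraries, against 55.9% of all genes, 0 of them at an unadjusted p under 0.05. Their summed level was 18.5, 29.8 and 119 CPM in controls and 9.24, 21.8 and 50.5 CPM after secretome. Within libraries 6 to 15 all 4 again had a lower level, against 52.1% of all genes. There 1 of them, Cidec, had an unadjusted p under 0.05 (log2 fold change -0.75 ± 0.27, edgeR p = 0.0167), where 4.92% of all genes were lower. The part of adipocyte markers in the Cfd difference was not tested. Cfp, which encodes the convertase stabilizer properdin, had a log2 fold change of -0.74 ± 0.22, and Cfb, which encodes the protease factor B, -0.55 ± 0.24. In libraries 6 to 15 the log2 fold change was -0.92 ± 0.24 for Cfd, -0.54 ± 0.19 for Cfp and -0.60 ± 0.28 for Cfb. The groups did not overlap for Cfd, a separation shown by 1.09% of the genes tested. Cfd also passed in DESeq2 there, just under the limit (adjusted p = 0.0499968), where 0.168% of genes passed and were lower.

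Among soluble regulators, Serping1 and Vtn were lower at an unadjusted p under 0.05, 2 of the 4 tested, against 9.21% of all genes. Vtn encodes vitronectin, an inhibitor of the terminal complex. Vtn spanned 5.22, 8.07 and 9.45 CPM in controls and 4.66, 5.05 and 7.31 CPM after secretome (log2 fold change -0.49 ± 0.12, edgeR adjusted p = 0.111), and in libraries 6 to 15 it had -0.27 ± 0.18. Of 7 receptors, Itgax, a chain of complement receptor 4, was lower at that p (log2 fold change -1.35 ± 0.38, edgeR adjusted p = 0.150), at 0.680, 2.26 and 9.56 CPM in controls and 0.351, 0.897 and 1.75 CPM after secretome. Of the 3 lectin-arm genes tested, the ficolin gene Fcna was lower at that p (log2 fold change -0.99 ± 0.39, edgeR adjusted p = 0.237), on 2 to 37 counts per library.

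Membrane regulators protect the body's own cells from C3 convertases and the terminal complex. Of 6 tested, 2 had a lower level, against 55.9% of all genes tested. None of the 6 had an unadjusted p under 0.05, where 9.21% of all genes were lower at that p. Their median log2 fold change was 0.05 over all libraries and 0.22 in libraries 6 to 15. Neither of the 2 terminal genes tested reached an unadjusted p under 0.05. Genes with too few counts for the edgeR test included C1rb, C1s2, C4a, Masp2, Mbl1, Mbl2, Fcnb, Colec10, Colec11, Hc, C6, C8a, C8b, C9, Cfi, C4bp, Cfhr2, Cd55b, Susd4, Vsig4 and Cr2.

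**Figure D4:**
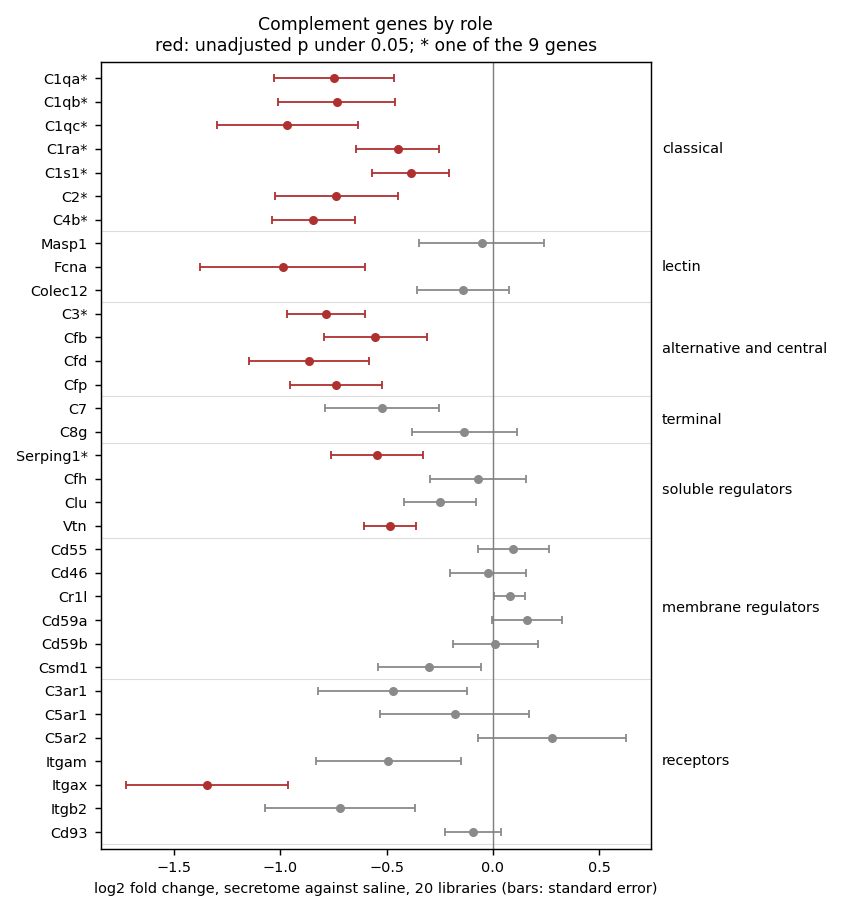
Log2 fold change of secretome against saline with its standard error over 20 libraries for the 33 complement genes tested, grouped by role, with red points for an unadjusted p under 0.05 and asterisks on the 9 genes. All 7 classical and all 4 alternative-arm genes, with C3 counted among the latter, are red, and none of the 6 membrane regulators is. Of all genes tested, 9.21% were lower at that p.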

How the data were processed

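The authors counted reads per gene with featureCounts 1.6.3 after trimming with cutadapt 1.16 and alignment with STAR 2.7.9a to GRCm39, per the labels, which also name DESeq2 1.34.0. The deposited values are counts without normalization. The libraries were directional and depleted of ribosomal RNA. The annotation and the strand setting of the counting are not given in the sources used here, so reads of overlapping genes could not be told apart. Low counts limit C2 most.

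Genes were filtered with filterByExpr, normalized with TMM and tested with the robust quasi-likelihood F-test of edgeR 4.0.16 (R 4.3.3), fitting treatment alone and adjusting p over all genes by Benjamini-Hochberg. A standard error is the absolute log2 fold change divided by the square root of F. The fit was repeated on libraries 6 to 15, and the difference between library sets was a contrast of 4 group means. CPM are counts scaled to a fixed total by the TMM library size. Ratios used log2 counts with a prior count of 2 and two-sided permutation tests (scipy 1.17.1, 100000 resamples, or all rearrangements for 5 against 5). Exon lengths and shared windows came from GENCODE on GRCm38, and promoters from RefSeq on GRCm38.p6. Groups came from the sample titles. The labels do not say how many cages or litters the mice came from. The genes named were the 9 members, listed complement genes with an unadjusted p under 0.05, 4 cell references and the 5 genes most like C1qa and C3. Csf1r, Adgre1, Pdgfra and Dcn were those references, and the other cell type markers named were chosen after their values were seen. Members, lists and library ranges were chosen with earlier results of these data known. Alternatives were DESeq2 1.42.0, RLE scaling, no filter, a replicate block, the library range as a term, a prior count of 0.5, and each library left out.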

Additional observations from a re-analysis of the deposited data

Results flagged for a closer look

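On a log2 scale, the C2 level of 1 secretome library stood apart from the other 9. Secretome replicate 5 had 6 counts, or 0.292 CPM, where the next lowest secretome library had 1.04 CPM. As log2 CPM with a prior count of 2, the gap took 0.548 of the range of the group. That share was above the 95% limit of Dixon's test for 10 samples. In CPM without the logarithm, the gap is a smaller part of the range and lies below that limit. The flag therefore holds for the log2 scale only. The other 8 genes showed no such library in either treatment. Of the 18 groups examined, 1 stood out, and chance alone gives about 1 in 20.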

How the results depend on the processing

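Each of the 9 genes kept a negative log2 fold change under every alternative, over all 20 libraries and within libraries 6 to 15. Over all 20 libraries, the number of the 9 genes past the 5% false discovery rate was 0 in edgeR, 2 in DESeq2 and 0 to 1 with each library left out (C4b without control replicate 5, adjusted p = 0.0428). With DESeq2 it was 2 to 3 with each library left out, C1qc being added without control replicate 8 or secretome replicate 8. The number of genes with an unadjusted p under 0.05 fell from 9 to 5 with the library range as a term and to 6 to 9 with a library left out. With the library range as a term the log2 fold change was -0.11 for C1ra, -0.15 for C1s1, -0.19 for Serping1 and -0.42 for C2. Since the other ranges hold 1 treatment each, only libraries 6 to 15 inform the treatment difference in that fit. Its values therefore repeat those of libraries 6 to 15 and are not a separate check. Of all genes, 1 passed in edgeR, 216 in DESeq2, 0 with the library range as a term and 0 to 15 with a library left out (15 without control replicate 5), and in DESeq2 69 (without control replicate 3) to 487 (without control replicate 10).

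Whether replicate numbers pair the mice could not be decided from the counts. The correlation of the deviations of same-numbered mice ran from -0.24 to 0.22, and 2 of 10 pairs exceeded 0.1. Same-numbered mice always came from different library ranges, and differences between ranges enter these correlations. With the replicate block, no call was made at the false discovery rate (0 of the 9 genes, 0 of all genes), and 5 of the 9 (C1qb, C1qc, C2, C3 and C4b) had an unadjusted p under 0.05. Within libraries 6 to 15 the treatments share no replicate number, so no block could be fitted.

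In libraries 6 to 15, 0 of the 9 genes passed in edgeR, 3 in DESeq2, 3 without the filter on low counts (C1qb, C3 and C4b) and 0 to 1 with a library left out (C3 without control replicate 8, adjusted p = 0.0468). In DESeq2, 3 to 5 passed with a library left out, C1qa and C1qc being added without control replicate 8. Of all genes, 0 passed in edgeR, 37 in DESeq2, 11 without the filter and 0 to 2 with a library left out, and in DESeq2 14 (without secretome replicate 4) to 141 (without control replicate 10). Why the filter and the tool change these counts was not tested. Of the 10 ratios, 0 passed over all 20 libraries and 0 to 1 with a library left out (C3 to Pdgfra without control replicate 2), and 2 passed within libraries 6 to 15 under every alternative, where leaving out a library cannot raise the p of groups that do not overlap and so shows nothing about stability. Low counts limit C2 and Fcna.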

Other observations

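Receptors for complement fragments were read in the same way. Within libraries 6 to 15, all 7 tested receptor genes had a lower level after secretome, against 52.1% of all genes tested. Of the 7, 3 were lower at an unadjusted p under 0.05, against 4.92% of all genes, and 0 passed the false discovery rate in edgeR. Itgb2, the chain shared by complement receptors 3 and 4, had a log2 fold change of -1.08 ± 0.25 (edgeR adjusted p = 0.398). Its groups did not overlap, a separation shown by 1.09% of the genes tested. It passed in DESeq2 (adjusted p = 0.0243), where 0.168% of genes passed and were lower. The log2 fold change was -1.06 ± 0.28 for Itgax (edgeR adjusted p = 0.404) and -0.58 ± 0.25 for the C5a receptor gene C5ar1 (edgeR adjusted p = 0.481). C5ar1 and Itgb2 are named here after their values were seen. Over all 20 libraries their log2 fold change was -0.18 ± 0.35 and -0.72 ± 0.35. Markers of neutrophils, which carry the same receptors, summed to 6.32, 12.9 and 14.2 CPM (lowest, median and highest) in the 5 controls of libraries 6 to 15 and to 2.16, 12.4 and 21.7 CPM in the 5 secretome mice, and their part in the receptor values was not tested. Endothelial markers had a median log2 fold change of -0.06 over all 20 libraries and -0.25 within libraries 6 to 15.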
